A study of Spodoptera frugiperda with 6 samples.

Results

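The 6 miRNAs described here come from 3 precursor pairs that lie side by side in the fall armyworm genome: miR-275 with miR-305, miR-92a with miR-92b, and miR-998 with miR-11. They were taken by name, as the rows called bmo-miR-275-3p, bmo-miR-305-5p, sfr-miR-92a-5p, bmo-miR-92b, bmo-miR-998 and sfr-miR-11-5p, with identical genomic copies counted once. This gave 6 of the 128 distinct mature sequences, or 10 of the 172 rows. Small RNA was sequenced from pools of 100 whole larvae of Spodoptera frugiperda aged 3 to 5 days, with 3 libraries from a strain resistant to diamide insecticides and 3 from a susceptible laboratory colony. No insecticide treatment is given for these larvae. Each group is 1 strain, so resistance and any other difference between the 2 strains cannot be told apart. The sources conflict over direction: the deposited strain labels give every miRNA in the study's own table of strain differences the sign opposite to the one printed there. The reason could not be settled from the files, so resistant and susceptible below mean the libraries so labelled, and every direction between them may be turned round. The libraries held 388273 to 937481 counts of distinct sequences each, of which the 6 members held 2.24% ± 0.252 in the libraries labelled resistant and 2.33% ± 0.320 in those labelled susceptible (SD, n = 3 each).

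MicroRNAs are cut from hairpin precursors, and precursors that lie close together on 1 strand are often made from a single primary transcript. A mature miRNA recognises its targets mainly through its seed, bases 2 to 8 from the 5′ end. In Aedes mosquitoes miR-275 is needed for blood digestion and egg development, and in Drosophila miR-305 links nutrition to the intestinal stem cells. In Drosophila, too, miR-92a and miR-92b act in neural stem cells, miR-92b also acts in muscle, and miR-11 and miR-998 lie together in an intron of the cell cycle gene E2f1 and limit cell death. These roles are background from other insects and were not measured here.

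The mature sequences are shown first because they carry the seeds compared below, and because the arm of 5 of them has to be read from the precursor. The seed is in capitals.
bmo-miR-275-3p: cGCGCUACuccggcgccgggcu
bmo-miR-305-5p: aUUGUACUucaucaggugcucugg
sfr-miR-92a-5p: uAUUGCACcagucccggccuau
bmo-miR-92b: aAUUGCACcaaucccggccugc
bmo-miR-998: uAGCACCAugggauucagcuca
sfr-miR-11-5p: cAUCACAGucagaguucuagcu
The members carried 5 different seeds, and only miR-92a and miR-92b shared one. Their sequences were equal at 18 of 22 bases. The differences were U1A, G11A, A21G and U22C, with the miR-92a base first and positions counted from its 5′ end. bmo-miR-305-5p was the longest member at 24 nt, and the other members had 22 nt.

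The arm in a name did not always match the arm on which the listed sequence lies. The precursors are printed with the listed mature sequence in capitals, so that its arm can be read.
bmo-miR-275-3p: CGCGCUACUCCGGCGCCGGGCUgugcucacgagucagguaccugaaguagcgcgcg
bmo-miR-305-5p: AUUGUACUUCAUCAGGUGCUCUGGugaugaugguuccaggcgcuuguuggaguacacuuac
sfr-miR-92a-5p: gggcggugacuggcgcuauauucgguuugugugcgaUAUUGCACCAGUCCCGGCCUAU
bmo-miR-92b: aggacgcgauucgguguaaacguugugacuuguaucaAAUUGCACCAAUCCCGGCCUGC
bmo-miR-998: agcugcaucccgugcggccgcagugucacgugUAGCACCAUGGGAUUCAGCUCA
sfr-miR-11-5p: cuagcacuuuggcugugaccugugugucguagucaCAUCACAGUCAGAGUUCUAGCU
The sequence named bmo-miR-275-3p occupies bases 1 to 22 of its precursor of 56 nt, which is the 5′ arm. The product better known as miR-275 in other insects comes from the 3′ arm, listed for this precursor as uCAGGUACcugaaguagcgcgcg, which has another seed. sfr-miR-92a-5p and sfr-miR-11-5p lie at the 3′ end of their precursors, although both names end in 5p, and bmo-miR-305-5p lies on the arm its name gives. The names of bmo-miR-92b and bmo-miR-998 give no arm, and both sequences lie on the 3′ arm. Over all entries with a miRBase name in the table, 24 names ending in 5p lay on the 5′ arm and 37 on the 3′ arm, and names ending in 3p lay on each arm 4 times. The values below are taken as those of the listed mature sequences. For bmo-miR-275-3p that is a 5′ arm product, and whether its counts belong to it or to the 3′ arm product of the name was not settled.

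The precursors of a pair were close together and kept the same spacing in each genomic copy (assembly ZJU_Sfru_1.0). The miR-275/miR-305 pair was listed in 2 copies on the plus strand of NC_049716.1, at 3408966 to 3409142 and at 5413559 to 5413735, each time with miR-275 first and 60 bases between the precursors. The miR-92a/miR-92b pair also had 2 copies, at 120205 to 120425 on the plus strand and at 947421 to 947641 on the minus strand of NC_049734.1. In both copies miR-92a came first in the direction of transcription and 104 bases lay between the precursors. The miR-998/miR-11 pair was listed once, at 13631312 to 13632570 on the minus strand of NC_049713.1, with miR-11 first and 1148 bases between them. Reads of a duplicated member cannot be assigned to 1 of its copies, since both copies carry identical counts. No gene annotation of this assembly was used here, so the genes around the pairs are not given.

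Predicted folding set 1 precursor apart. The lowest free energy of the listed precursor was -29.2 kcal/mol for miR-305, -27.0 for miR-92a, -26.5 for miR-275, -26.1 for miR-998 and -25.7 for miR-11. It was -16.1 kcal/mol for miR-92b, rank 128 from the most stable of 142 distinct precursors in the tables, while the other 5 ranked between 14 and 43. By mean abundance over the 6 libraries miR-92b was the first member, with miR-11 close to it. A link between predicted folding and abundance was not tested.

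Abundance spanned a wide range between the pairs and within them. Values are given as CPM, counts per 1000000 counts of distinct sequences in a library after TMM scaling (edgeR's trimmed mean of M-values). A read stands for a whole miRNA molecule, so no scaling for length was made. By mean CPM over the 6 libraries, bmo-miR-92b and sfr-miR-11-5p ranked 16 and 17 of the 128 sequences, at 8855 and 8252 CPM. bmo-miR-275-3p ranked 24 at 3389 CPM and bmo-miR-305-5p ranked 37 at 1282 CPM. sfr-miR-92a-5p followed at rank 39 with 856 CPM, and bmo-miR-998 was at rank 66 with 154 CPM. The ranges over the 6 libraries overlapped only for bmo-miR-92b and sfr-miR-11-5p, so these neighbours in the order were not separated, and the order of the others held in all libraries.

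**Figure D1:**
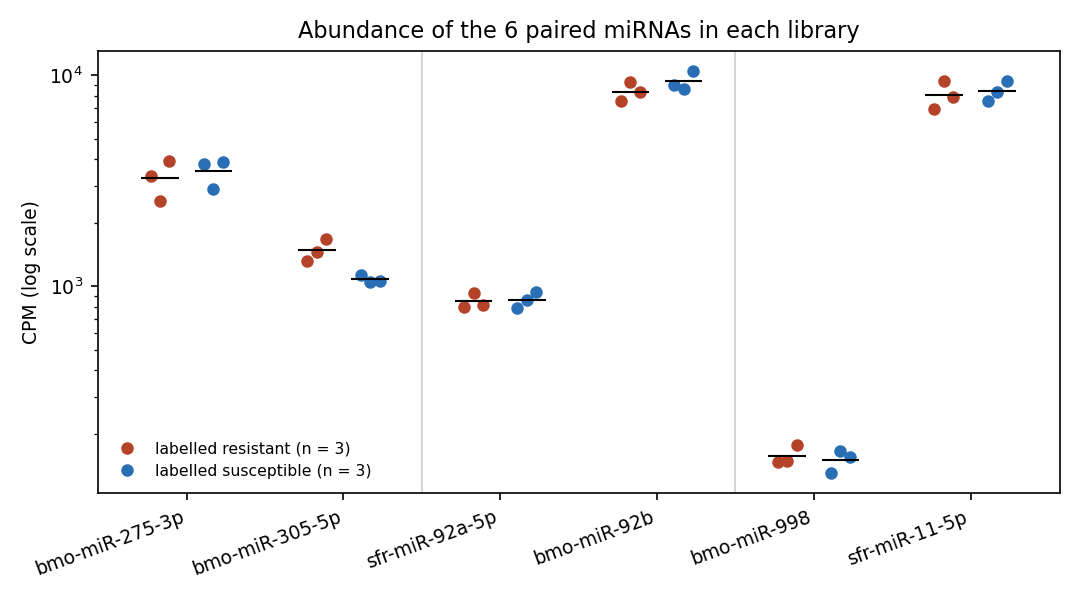
CPM on a log scale of each member in each library, with the mean of 3 libraries as a line. bmo-miR-305-5p is the only member whose 3 libraries labelled resistant, at 1317 to 1682 CPM, all lie above the 3 labelled susceptible.

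bmo-miR-305-5p was the single member called between the strains, and it was higher in the libraries labelled resistant, a direction that turns round if the labels are exchanged. It had 1317, 1458 and 1682 CPM in resistant replicates 1, 2 and 3, against 1131, 1043 and 1059 CPM in susceptible replicates 1, 2 and 3. All resistant libraries lay above all susceptible libraries, and the 3 susceptible values lay closer together (SD 47.2) than the resistant values (SD 184). The log2 fold change, resistant over susceptible, was 0.46 with a standard error of 0.13 and a 95% interval of 0.17 to 0.75, or 1.38-fold (edgeR quasi-likelihood test, adjusted p = 0.0232). In these bulk libraries fewer cells of a type and less RNA per cell cannot be told apart. DESeq2 and TMM factors of 1 kept the call (adjusted p = 0.0354 and 0.0325), whereas upper-quartile factors (log2 fold change 0.23, adjusted p = 0.328) and library sizes set to the study's mapped reads (-0.26, adjusted p = 0.555) moved the median of all sequences from 0.05 to -0.18 and -0.65, and left bmo-miR-305-5p 0.41 and 0.39 above that median, against 0.41 in the fit reported. The call was also lost with a minimum of 10 counts per library (adjusted p = 0.0775 by edgeR) and without the 3 most abundant sequences (0.0573). The same held without resistant replicate 3 (adjusted p = 0.0641), without susceptible replicate 2 (0.0867) and without susceptible replicate 3 (0.0722). The call was kept in 8 of 15 alternatives, with adjusted p from 0.0128 to 0.555.

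bmo-miR-275-3p, the partner of miR-305, had 3328, 2534.5 and 3937 CPM in resistant replicates 1, 2 and 3, against 3773, 2883 and 3880 CPM in susceptible replicates 1, 2 and 3. The groups overlapped, with the lowest value in resistant replicate 2 and the highest in resistant replicate 3. Its log2 fold change was -0.10 (standard error 0.17, 95% interval -0.48 to 0.27, adjusted p = 0.666 by edgeR). A strain difference was not detected for it, and the interval leaves room for a fall of 0.48 or a rise of 0.27 on the log2 scale.

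The ratio of bmo-miR-275-3p to bmo-miR-305-5p varied more than that of the other 2 pairs. bmo-miR-275-3p had 2.53, 1.74 and 2.34 counts for each count of bmo-miR-305-5p in resistant replicates 1, 2 and 3, against 3.34, 2.77 and 3.66 in susceptible replicates 1, 2 and 3. The 3 resistant ratios were all lower than the 3 susceptible ones, although the nearest counting intervals overlapped, reaching up to 2.70 in resistant replicate 1 and down to 2.56 in susceptible replicate 2. The mean was 2.20 ± 0.413 in the resistant and 3.26 ± 0.455 in the susceptible libraries (SD, n = 3 each), and the highest ratio was 2.11 times the lowest. On the log2 scale the ratio differed by -0.57 between the strains (standard error 0.22, 95% interval -1.13 to -0.01). This did not pass the test after adjustment over the 23 neighbouring pairs of the table (limma, adjusted p = 0.214; exact two-sided permutation p = 0.1, the lowest value that this permutation test can give with 3 libraries against 3). Groups that did not overlap were seen for 34.8% of those 23 pairs, and 4.35% passed the limma test. miR-305 is therefore called between the strains and miR-275 is not, but the difference between the partners itself was not established.

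**Figure D2:**
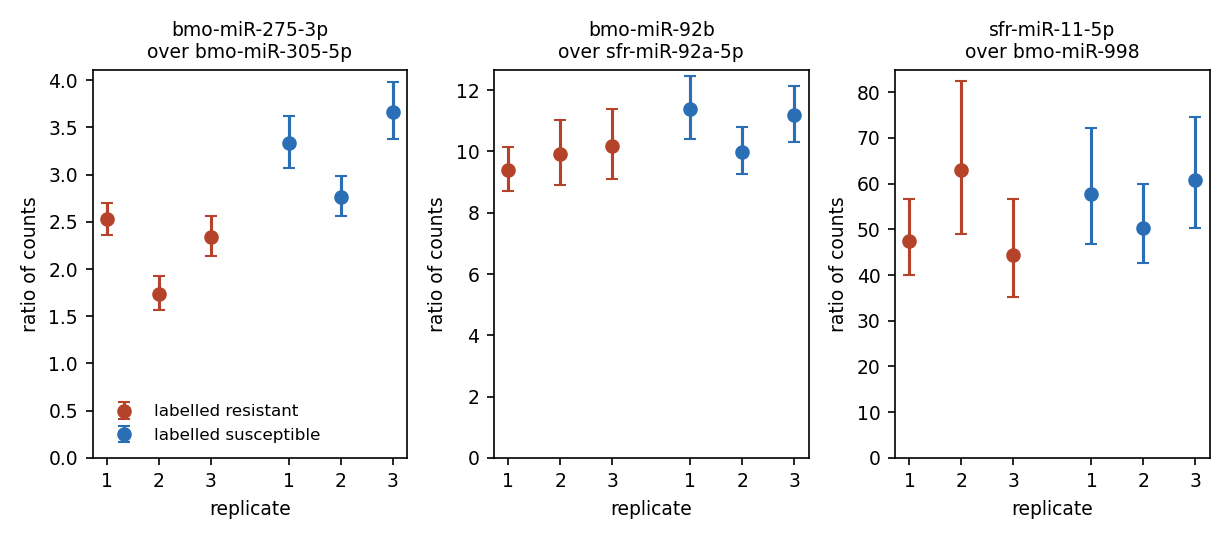
Ratio of the counts of the more abundant to the less abundant member of each pair in each library, with exact 95% counting intervals and axes that start at 0. The miR-275 to miR-305 ratio is 1.74 to 2.53 in the libraries labelled resistant and 2.77 to 3.66 in those labelled susceptible, whereas the groups overlap for the other 2 pairs.

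Neither miR-92 member was called between the strains. sfr-miR-92a-5p had 801, 934 and 816 CPM in resistant replicates 1, 2 and 3, against 789, 860 and 936 CPM in susceptible replicates 1, 2 and 3. Both groups covered nearly the same range, and the log2 fold change was -0.02 (95% interval -0.32 to 0.27, standard error 0.13, adjusted p = 0.915 by edgeR). bmo-miR-92b had 7525, 9256 and 8297 CPM in resistant replicates 1, 2 and 3, against 8986, 8596 and 10472.5 CPM in susceptible replicates 1, 2 and 3. The highest value was that of susceptible replicate 3 and the lowest that of resistant replicate 1, and the groups overlapped between them. The log2 fold change of bmo-miR-92b was -0.16 (standard error 0.12, 95% interval -0.42 to 0.10, adjusted p = 0.314 by edgeR). It passed in 2 of 15 alternatives, with library sizes set to the mapped reads (log2 fold change -0.91, adjusted p = 0.0484) and without the 3 most abundant sequences (-0.30, adjusted p = 0.0457), and had adjusted p from 0.0457 to 0.608 over all of them. Relative to the median of all sequences it stood at -0.25 and -0.24 in these alternatives, against -0.22 in the fit reported.

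The pair with a shared seed kept the steadiest ratio. bmo-miR-92b had 9.40, 9.91 and 10.2 counts for each count of sfr-miR-92a-5p in resistant replicates 1, 2 and 3, against 11.4, 9.99 and 11.2 in susceptible replicates 1, 2 and 3. The highest ratio was only 1.21 times the lowest, and the groups overlapped. The mean was 9.82 ± 0.393 in the resistant and 10.9 ± 0.751 in the susceptible libraries (SD, n = 3 each). The log2 ratio of miR-92a to miR-92b differed by 0.14 between the strains (standard error 0.15, 95% interval -0.24 to 0.52, adjusted p = 0.543 by limma over the 23 pairs; exact permutation test, two-sided p = 0.2). Of all counts with the seed AUUGCAC, sfr-miR-92a-5p held 9.25% ± 0.340 in the resistant and 8.46% ± 0.555 in the susceptible libraries (SD, n = 3 each).

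miR-11 and miR-998 differed most in abundance and were not called between the strains. sfr-miR-11-5p had 6943, 9412 and 7847 CPM in resistant replicates 1, 2 and 3, against 7562, 8332 and 9412 CPM in susceptible replicates 1, 2 and 3. The highest values of both groups were equal to the nearest CPM, and the lowest was that of resistant replicate 1. Its log2 fold change was -0.06 (standard error 0.13, 95% interval -0.36 to 0.23, adjusted p = 0.731 by edgeR). bmo-miR-998 had 146, 149.5 and 177 CPM in resistant replicates 1, 2 and 3, against 131, 165 and 155 CPM in susceptible replicates 1, 2 and 3. These values rest on 134, 61 and 74 counts and on 88, 144 and 105 counts, and the groups overlapped. Its log2 fold change was 0.06 (standard error 0.18, 95% interval -0.33 to 0.45, adjusted p = 0.827 by edgeR).

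sfr-miR-11-5p had 47.4, 63.0 and 44.3 counts for each count of bmo-miR-998 in resistant replicates 1, 2 and 3, against 57.8, 50.4 and 60.9 in susceptible replicates 1, 2 and 3. Resistant replicate 2 had the highest ratio and resistant replicate 3 the lowest, so the susceptible values lay inside the resistant range. The interval of resistant replicate 2, with the fewest counts of bmo-miR-998, was 48.9 to 82.5 and held the ratios of all susceptible libraries. The mean was 51.6 ± 9.98 in the resistant and 56.4 ± 5.40 in the susceptible libraries (SD, n = 3 each). The log2 ratio of miR-998 to miR-11 differed by 0.14 (standard error 0.20, 95% interval -0.37 to 0.66, adjusted p = 0.62 by limma; exact permutation test, two-sided p = 0.5).

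**Figure D3:**
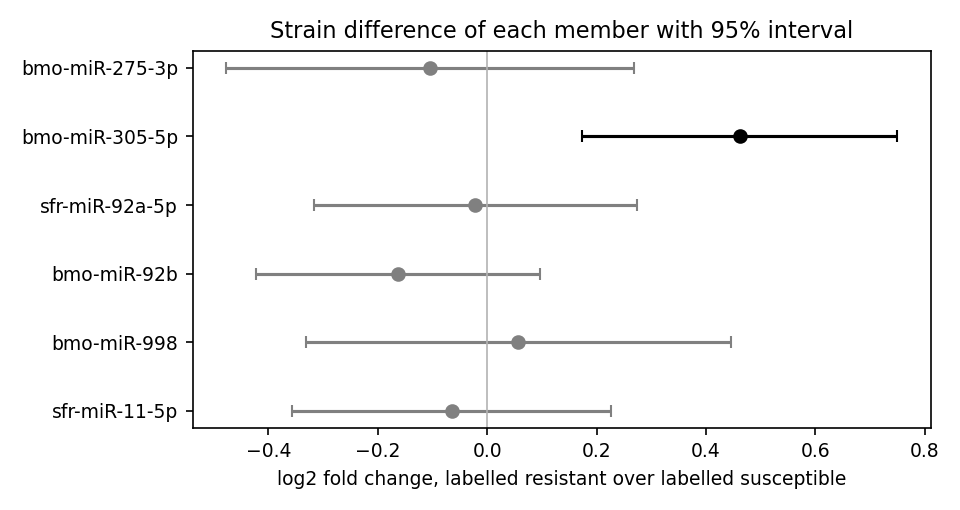
Log2 fold change of each member, libraries labelled resistant over libraries labelled susceptible, with its 95% interval from the edgeR fit. The interval of bmo-miR-305-5p (black, adjusted p under 0.05) runs from 0.17 to 0.75, and those of the other 5 members (grey) include 0.

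Of the 6 members, 1 was higher, none was lower and 5 did not pass the edgeR test at an adjusted p under 0.05. The counts of members were equal at an unadjusted p under 0.05, which 50 of the 112 sequences tested had. DESeq2 also called 1 member, bmo-miR-305-5p, higher, beside 25 of 128 sequences (14 higher, 11 lower). Over the 112 sequences that passed the filter on low counts, 23.2% were higher and 9.82% lower, so the members' share of 1 in 6 is near the background. No member also passed a 2-fold change, which 10.7% of all tested sequences did. The groups did not overlap for 1 member, against 51.8% of all sequences tested. The median log2 fold change was -0.04 over the members and 0.05 over all sequences tested.

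Of the 5 tested sequences that share a seed with miR-11, 2 rose and none fell by the edgeR test, beside 23.2% higher and 9.82% lower over all sequences tested. The counts were the same at an unadjusted p under 0.05, which 50 of the 112 sequences tested had. DESeq2 called 1 of the 5, bmo-miR-308-3p, beside 25 of 128 sequences. The seed of miR-11, AUCACAG, is that of the miR-2 and miR-13 family, whose members repress genes of cell death in Drosophila.
sfr-miR-2c-5p: uAUCACAGccagcuuuguugacu
sfr-miR-2b-5p: uAUCACAGccagcuuugaugagcg
sfr-miR-13b-5p: uAUCACAGccauuuuugacgaguu
bmo-miR-13a-5p: uAUCACAGccacuuugauguggu
bmo-miR-308-3p: aAUCACAGgauaauacugcga
These are shown beside sfr-miR-11-5p because they are alike in the seed and differ after it. bmo-miR-308-3p averaged 323 ± 59.9 CPM in the resistant and 192 ± 41.8 CPM in the susceptible libraries (SD, n = 3 each). It was 1.68-fold higher in the resistant libraries (log2 fold change 0.75, 95% interval 0.30 to 1.20, adjusted p = 0.0201 by edgeR). Its call was kept in 12 of 15 alternatives, with adjusted p from 0.00694 to 0.935. It was lost without susceptible replicate 2 (log2 fold change 0.56, adjusted p = 0.0935) and with a minimum of 10 counts per library (0.62, adjusted p = 0.0625). With library sizes set to the mapped reads it was lost too (0.05, adjusted p = 0.935), where the median of all sequences was -0.65. bmo-miR-13a-5p rested on 21 to 44 counts per library, and its log2 fold change was 0.70 (adjusted p = 0.0416 by edgeR, standard error 0.23), a call that only 1 of 15 alternatives kept, and its adjusted p ranged from 0.043 to 0.991 over them. The groups did not overlap for either, as for 51.8% of all sequences tested. sfr-miR-2c-5p, sfr-miR-2b-5p and sfr-miR-13b-5p did not pass (log2 fold changes 0.08, -0.07 and 0.22). The median of the 5 tested was 0.22.

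miR-11 was the second largest source of its seed. It held 28.7% ± 2.19 of the counts with the seed AUCACAG in the resistant and 31.0% ± 1.85 in the susceptible libraries (SD, n = 3 each; exact permutation test, two-sided p = 0.3). sfr-miR-2c-5p held 66.7% ± 2.09 in the resistant and 64.9% ± 1.83 in the susceptible libraries (SD, n = 3 each). The seed of miR-998, AGCACCA, was otherwise carried only by sfr-miR-285-5p.
bmo-miR-998: uAGCACCAugggauucagcuca
sfr-miR-285-5p: uAGCACCAuucgaauucagugc
sfr-miR-285-5p had 6, 1 and 1 counts in resistant replicates 1, 2 and 3 and 1 count in each susceptible library, and did not pass the filter on low counts. bmo-miR-998 therefore held 95.7% to 99.3% of the counts of this seed in every library.

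Members of a precursor pair did not always vary together more closely than members of different pairs. The measure was the SD over the 6 libraries of the log2 ratio of 2 sequences, which does not depend on library scaling, and is given as a description. Of the 15 combinations of 2 members, sfr-miR-92a-5p with sfr-miR-11-5p (SD 0.08) and bmo-miR-92b with sfr-miR-11-5p (SD 0.09) varied least, ahead of miR-92a with miR-92b (SD 0.11). miR-998 with miR-11 was rank 5 of 15 (SD 0.21). bmo-miR-275-3p with bmo-miR-305-5p, whose precursors are closest, varied most of all (SD 0.38). Counting error alone gives an SD of about 0.07 for miR-92a with miR-92b, 0.15 for miR-998 with miR-11 and 0.06 for miR-275 with miR-305.

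**Figure D4:**
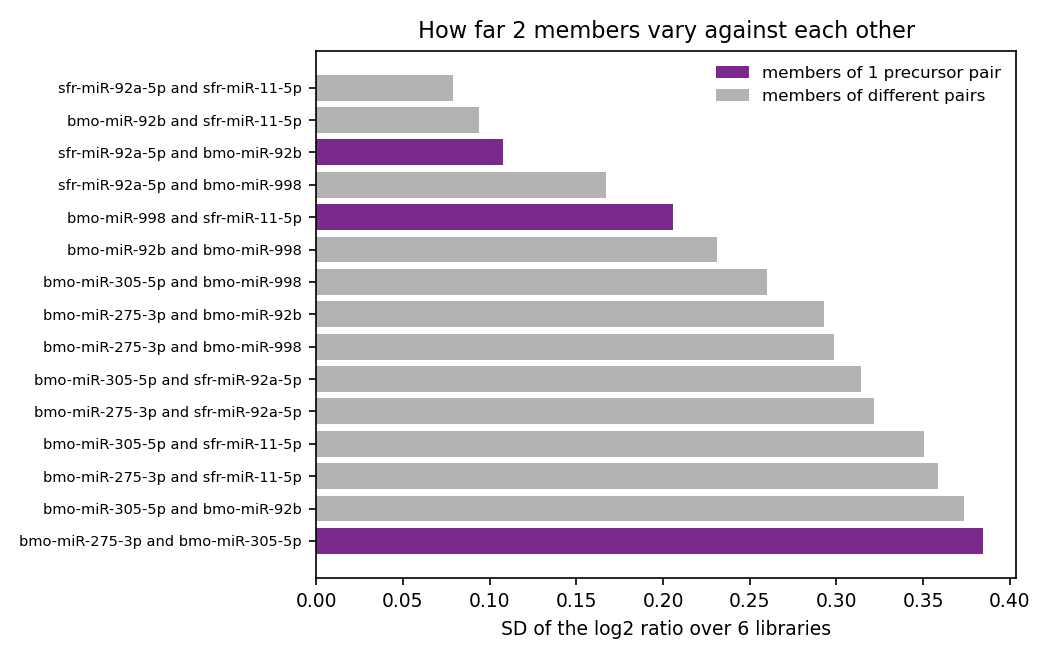
SD over 6 libraries of the log2 ratio for each of the 15 combinations of 2 members, with members of the same precursor pair in purple and the axis starting at 0. The 3 purple bars stand at rank 3, 5 and 15, at SDs of 0.11, 0.21 and 0.38.

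By this SD, the partner was not first among the 111 other tested sequences for any of the 6 members. The SDs hold counting error, which is larger for sequences with fewer counts, so near ranks are not separated. Counting error was about 0.07 for miR-92a with miR-92b (SD 0.11) and 0.15 for miR-998 with miR-11 (SD 0.21). It was about 0.06 for miR-275 with miR-305 (SD 0.38). For bmo-miR-92b the partner sfr-miR-92a-5p ranked 2, after sfr-miR-11-5p, and for sfr-miR-92a-5p the partner ranked 6, after sfr-miR-2b-5p (SD 0.06) and sfr-miR-2a-5p (SD 0.07) in the first places. For bmo-miR-998 the partner miR-11 ranked 16, and the closest were sfr-miR-2a-5p and sfr-miR-2c-5p (SD 0.12 each). For sfr-miR-11-5p the partner ranked 18, and the closest were Spodoptera_mature_06, a predicted miRNA with no miRBase name, and sfr-miR-92a-5p (SD 0.08 each). For bmo-miR-275-3p the partner ranked 47, behind sfr-miR-281-5p (SD 0.17) and bmo-miR-970-5p (SD 0.19) at the head. For bmo-miR-305-5p the partner ranked 55, and sfr-miR-279c-5p (SD 0.08) and sfr-miR-2766-5p (SD 0.09) were closest. The median SD over all other sequences was 0.44 for bmo-miR-275-3p and 0.39 for bmo-miR-305-5p, so their SD of 0.38 against each other was close to these medians.

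The member pairs were also set beside the 20 other neighbouring pairs of the table, that is, adjacent precursors of distinct sequences less than 10 kb apart on a strand. miR-998/miR-11 had the largest gap in abundance of all 23 pairs, with a mean log2 ratio of -5.73, and the next was sfr-miR-2b-5p/sfr-miR-2c-5p at -4.92. The smallest gap, 0.06, was that of Spodoptera_mature_60 and sfr-miR-10460-5p. The mean log2 ratio was -3.37 for miR-92a/miR-92b and 1.41 for miR-275/miR-305, against a median size of 2.14 for the others. By SD of the log2 ratio, miR-92a/miR-92b was the steadiest of the 23 pairs, miR-998/miR-11 ranked 3 and miR-275/miR-305 ranked 9. These SDs include counting error, which differs between pairs with their depth, so the ranks are not of spread beyond counting. Counting error was about 0.06 for miR-275/miR-305, far under its SD of 0.38. For Spodoptera_mature_56/Spodoptera_mature_19 it was 0.37, above the SD of 0.25. The median SD was 0.41 over the 16 other pairs in which both sequences passed the filter on low counts. The single pair called between the strains was that of the 2 sequences named sfr-miR-10465-5p, Spodoptera_mature_101 over Spodoptera_mature_155, whose log2 ratio averaged 0.76 in the libraries labelled resistant and 5.97 in those labelled susceptible, with the same doubt over the labels (difference -5.20, standard error 0.21, adjusted p = 1.99e-05 by limma).

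**Figure D5:**
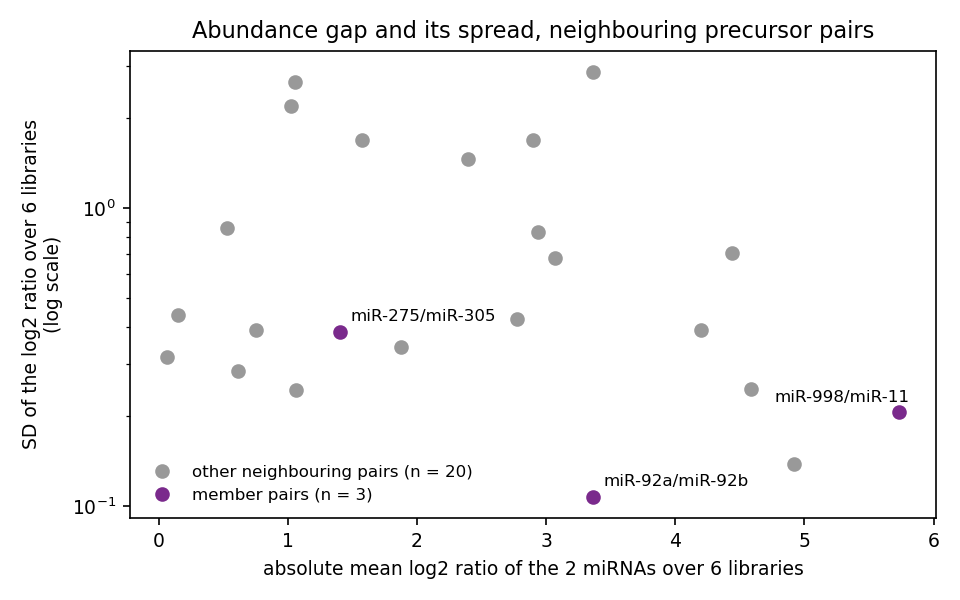
Absolute mean log2 ratio of the 2 miRNAs of each neighbouring precursor pair against the SD of that log2 ratio over 6 libraries (log scale), for the 3 member pairs in purple and 20 other pairs in grey. miR-92a/miR-92b has the lowest SD, 0.11, and miR-998/miR-11 the largest gap, with a mean log2 ratio of -5.73.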

How the data were processed

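Reads of 50 bp were trimmed by the authors (cutadapt, minimum 18 nt), aligned to the assembly ZJU_Sfru_1.0 and assigned to precursors by miRDeep2, with known miRNAs taken from miRBase release 22. Each library has 3 kinds of value in the deposited table: the authors' raw counts, the authors' RPM, and a signal whose heading names DESeq2 normalization, also by the authors. The counts were used here; RPM and the normalized signal served only for alternative ratios. Sequences were joined by miRNA ID to the study's sequence tables, and identical sequences were counted once. Coordinates were made 1-based, since end minus start equals the precursor's length in all 172 rows.

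The test between strains was edgeR's quasi-likelihood test (version 4.0.16 in R 4.3.3) on TMM-scaled counts, after filterByExpr and with no term but strain. Benjamini-Hochberg adjustment ran over the 112 sequences left. Log2 ratios of neighbouring pairs (0.5 added to each count) were tested with limma 3.58.1 over 23 pairs, beside exact permutation tests over libraries. Intervals are at 95%, from the t distribution for fold changes and Clopper-Pearson for ratios of counts, which cover counting error only, as reads carry no molecular identifiers. Precursors were folded with RNAfold 2.7.2. Both models were run on simulated counts whose known changes were 2-fold or more, so changes as small as those of the members and their pairs were not covered. Alternatives were DESeq2 1.42.0, other scalings and filters, copies kept, a replicate block, other pseudocounts and units, and leaving out each library. The named miRNAs were the members, their seed relatives, the 2 sequences closest to each member, and the extreme or called neighbouring pairs. The members and lists were chosen with earlier results of these data known.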

Additional observations from a re-analysis of the deposited data

How the results depend on the processing

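The call of bmo-miR-305-5p was lost in alternatives that also moved the median of all sequences, and in some fits that left out a library. Its log2 fold change of 0.46 was 0.23 with upper-quartile factors, 0.32 with a minimum of 10 counts per library, 0.32 without the 3 most abundant sequences and -0.26 with library sizes set to the mapped reads, none of them past the threshold. The median of all sequences, 0.05 in the fit reported, was then -0.18, -0.07, -0.06 and -0.65, and bmo-miR-305-5p stood 0.39 to 0.41 above it. It ranged from 0.36 to 0.53 when a library was left out. bmo-miR-92b passed with mapped reads (-0.91) and without the 3 most abundant sequences (-0.30). The number of members called, 1 in the fit reported, was 0 with upper-quartile factors and with the minimum of 10 counts, and 0 to 1 when a library was left out. With mapped reads and without the 3 most abundant sequences it was again 1, with bmo-miR-92b lower, while its value relative to the median, -0.22 in the fit reported, was -0.25 and -0.24. The number of seed relatives called, 2 in the fit reported, was 1 with DESeq2, with TMM factors of 1, with upper-quartile factors, with no filter, with the replicate block and without the 3 most abundant sequences. It was 0 with mapped reads and with the minimum of 10 counts, and 0 to 1 when a library was left out. With mapped reads the log2 fold change of bmo-miR-13a-5p was -0.0063. The cause was not tested.

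The differences in the 3 pair ratios kept their sign and stayed past no threshold in 11 alternatives each, from -0.68 to -0.41 for miR-275/miR-305, 0.11 to 0.20 for miR-92a/miR-92b and 0.04 to 0.29 for miR-998/miR-11. One of these, the fit on pairs that both passed the filter, was chosen after seeing the data. Over all sequences, 37 passed in the fit reported (26 higher, 11 lower), 11 were higher and 24 lower with upper-quartile factors, 3 and 29 with mapped reads, and 13 and 22 without the 3 most abundant sequences. DESeq2 called 25 (14 higher, 11 lower), the minimum of 10 counts left 26 (10 higher, 16 lower), and leaving out susceptible replicate 2 left 21 and susceptible replicate 1 left 24. Whether replicate numbers pair the libraries was not settled. Deviations of same-numbered libraries correlated at 0.06, 0.26 and 0.27 across sequences, and those of differently numbered libraries at -0.35 to 0.15. Resistant replicate 1 correlated better with susceptible replicate 2 (0.15) than with the susceptible library of its own number. The replicate block left 37 calls (23 higher, 14 lower), without bmo-miR-13a-5p (adjusted p = 0.0618), and with adjusted p = 0.018 for bmo-miR-305-5p and 0.139 for the miR-275/miR-305 ratio. Depth limits bmo-miR-998, with 61 to 144 counts per library.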

Other observations

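Within the libraries of a strain, the order of the pairs by spread was the same at the steady end. The SD of the log2 ratio of sfr-miR-92a-5p and bmo-miR-92b was 0.06 over the 3 libraries labelled resistant and 0.10 over the 3 labelled susceptible. That of bmo-miR-275-3p and bmo-miR-305-5p was 0.29 in the resistant and 0.21 in the susceptible libraries, so its spread over all 6 libraries is not only that between the strains. That of bmo-miR-998 and sfr-miR-11-5p was 0.27 in the resistant and 0.14 in the susceptible libraries. These are values over 3 libraries each, given without a test.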
